A study of Mus musculus with 9 samples.

Results

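The genes described here are 10 transcription factor genes whose expression in developing spinal cord follows the birth time of neurons: the zinc finger homeobox genes *Zfhx2*, *Zfhx3* and *Zfhx4*, the nuclear factor I genes *Nfia*, *Nfib* and *Nfix*, the *Onecut1*, *Onecut2* and *Onecut3* genes, and *Neurod2*. They were chosen by name, and all 10 were present among the 21457 features measured in 16042 cholinergic nuclei of adult mouse spinal cord. Nuclei were sorted by GFP from mice of the genotype Chat-iCre:+/wt; SUN-SfGFP:+/wt, in which Cre from the *Chat* locus marks the nuclear envelope of any cell that has ever used that locus. Every library shared this genotype and an age of 8 weeks. The 12 mice, 6 male and 6 female, were combined into 3 pools of 4, and the cord of each pool was cut into a cervical, a thoracic and a lumbar/sacral part. This gave 9 libraries, 3 per region. Replicate 1 held 2 male and 2 female mice, replicate 2 held 4 males and replicate 3 held 4 females, so that the 3 libraries of a replicate share their mice and sex cannot be told apart from the pool. The authors' labels place 5054 nuclei in skeletal motor neurons (MNs), 5613 in visceral MNs and 5375 in cholinergic interneurons, and divide these into clusters S1 to S3, V1 to V10 and I1 to I8. Within the skeletal MNs the labels name S2 as alpha, S3 as gamma and S1 as Type 3 MNs. Nuclei with Cre history but without *Chat* were left out by the authors, who annotated 34231 nuclei in all.

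In the embryonic spinal cord, neurons born early and neurons born late from the same progenitors carry different transcription factors. *Onecut* factors mark early births, *Zfhx* factors mark intermediate births, and *Nfi* factors and *Neurod2* mark late births. Early-born neurons tend to send long axons and late-born neurons tend to make local connections. Zfhx proteins are very large proteins with many zinc fingers and homeodomains, NFI proteins bind DNA as dimers and also act in glial development, Onecut proteins carry a cut domain beside a homeodomain, and Neurod2 is a basic helix-loop-helix activator of neuronal genes. Motor neurons are born early and project out of the cord.

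Coordinates are those of GRCm38 with the GENCODE annotation. *Zfhx3* lies on chromosome 8 at 107942644-108961630 on the plus strand and is the longest gene among these, at 1019 kb. *Zfhx4* lies on chromosome 3 at 5218526-5415857 (plus) and *Zfhx2* on chromosome 14 at 55060262-55092324 (minus). *Nfia* and *Nfib* are on the same chromosome, number 4, at 97772734-98118874 (plus) and 82290173-82705750 (minus), and *Nfix* is on chromosome 8 at 84699876-84800344 (minus). *Neurod2* lies on chromosome 11 at 98325415-98329648 (minus) and is the shortest, at 4.23 kb. Reads of nuclei include introns, so a long gene can collect more counts than a short gene at the same number of transcripts, and levels are compared below between cell types, never between genes.

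The promoters of *Nfia*, *Zfhx3* and *Neurod2* are shown because these 3 genes had their highest levels in 3 different sets of clusters: the skeletal MNs and I8 for *Nfia*, I5, I6, I8 and V8 for *Zfhx3*, and the remaining interneuron clusters for *Neurod2*. Each sequence is the 250 bases before the gene's start in RefSeq (GRCm38.p6), 5′ to 3′ on the gene's strand, at chr4:97581693-97581942 (plus), chr8:108714394-108714643 (plus) and chr11:98329646-98329895 (minus). Capitals mark the NFI core (TTGGC or GCCAA) and an E-box of the kind bound by Neurod factors (CAGATG or CATCTG), searched on both strands.
Nfia: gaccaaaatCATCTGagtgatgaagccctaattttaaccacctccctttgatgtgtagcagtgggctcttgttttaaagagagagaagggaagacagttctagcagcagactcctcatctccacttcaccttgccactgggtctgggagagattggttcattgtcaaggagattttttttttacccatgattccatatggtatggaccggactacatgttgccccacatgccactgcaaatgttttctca
Zfhx3: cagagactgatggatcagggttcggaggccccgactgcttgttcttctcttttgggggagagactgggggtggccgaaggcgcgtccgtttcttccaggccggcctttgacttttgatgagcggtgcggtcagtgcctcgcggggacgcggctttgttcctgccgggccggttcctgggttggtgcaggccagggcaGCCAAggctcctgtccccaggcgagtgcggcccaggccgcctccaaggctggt
Neurod2: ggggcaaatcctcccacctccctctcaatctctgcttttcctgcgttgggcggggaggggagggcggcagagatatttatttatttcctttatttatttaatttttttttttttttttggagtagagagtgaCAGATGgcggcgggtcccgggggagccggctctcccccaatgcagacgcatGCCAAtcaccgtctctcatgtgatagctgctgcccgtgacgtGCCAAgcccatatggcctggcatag
The *Nfia* sequence holds 0 NFI cores and 1 such E-box, the *Zfhx3* sequence 1 and 0, and the *Neurod2* sequence 2 and 1. Of 32851 promoters of this length, 41.5% hold the NFI core and 14.4% hold the E-box, so such matches are common. The *Zfhx3* start used lies within the longer gene of the GENCODE annotation, and the *Nfia* start lies before it, inside the antisense gene *E130114P18Rik*.

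Values are corrected counts, model values that bring the nuclei of a library to nearly the same total. The median total was 7381 per nucleus over all nuclei and 4712 to 16127 in single libraries, and by class it was 7393 (skeletal), 7519 (visceral) and 6986 (interneuron). Sums over the nuclei of a library and cell type are given as counts per 1000000 corrected counts (CPM). The libraries held 747 to 2825 nuclei, and any pair of libraries shared at most 4 cell barcodes. The class labels were described by their markers. *Tns1* and *Prph* summed to 336 to 632 CPM in skeletal MNs and to at most 205 CPM in the other classes. *Zeb2* and *Fbn2* summed to 747 to 1458 CPM in visceral MNs and to at most 89.2 CPM elsewhere. *Pax2* and *Mpped2* summed to 391 to 540 CPM in interneurons and to at most 62.1 CPM elsewhere. Apart from *Prph*, the paper used these genes to assign clusters of these same nuclei to classes. Agreement was thus built in and is no independent check. By the paper, V8 lacked detectable *Zeb2* and I8 lacked *Pax2*, which sums over a class do not show. NFI genes are also used by glia. Markers of astrocytes summed to at most 7.17 CPM, those of microglia to at most 25.2 CPM and those of oligodendrocytes to 53.8 to 91.7 CPM (skeletal), 34.9 to 58.3 CPM (visceral) and 35.9 to 53.5 CPM (interneuron). The region labels were checked by Hox genes. *Hoxd11*, a gene of the lumbar cord, was at 0 in skeletal MNs of all cervical and thoracic libraries and at 27.2 to 37.3 CPM in those of lumbar/sacral cord. *Hoxc5* in skeletal MNs was 16.1, 82.5 and 15.6 CPM in the libraries labelled cervical replicates 1 to 3 and 101, 9.44 and 94.5 CPM in those labelled thoracic, and *Hoxa9* was 0.145, 9.04 and 0 CPM and 11.9, 0.629 and 15.8 CPM. The libraries labelled cervical replicate 2 and thoracic replicate 2 thus each resembled the other label. The estimate for lumbar/sacral against the mean of the other regions is the same if these labels were exchanged, although its error and adjusted p would change, and cervical against thoracic is given with and without them. In 1 library a skeletal cluster also stood apart: S2 of the library labelled cervical replicate 2 (71 nuclei) had *Zeb2* at 133 CPM, against 0 to 9.35 CPM in S2 of the other libraries, and *Tns1* at 80.5 CPM, against 311 to 450 CPM.

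**Figure D1:**
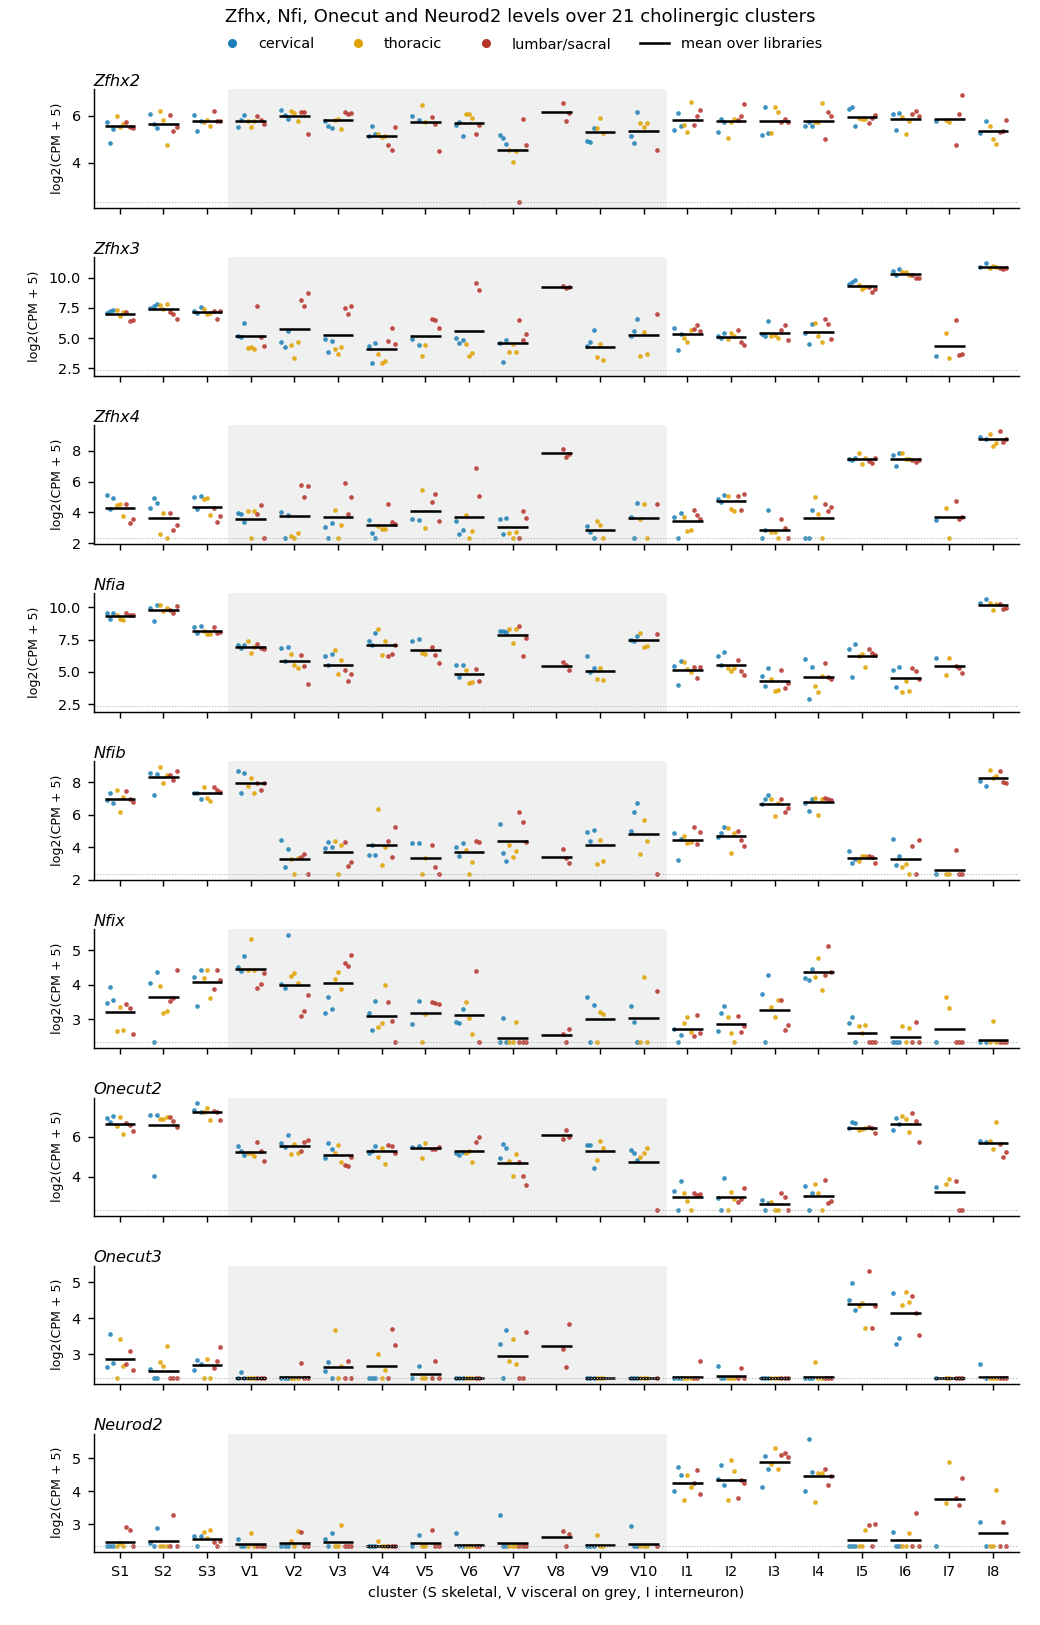
Levels of the 9 genes other than *Onecut1* in the 21 clusters, as log2(CPM + 5); points are libraries with at least 10 nuclei of the cluster, coloured by region, and bars their mean. *Zfhx3* and *Zfhx4* rise above the other clusters in I5, I6, I8 and V8, *Nfia* in the skeletal clusters and I8, *Nfib* in S2, I8 and V1, *Onecut2* in the skeletal clusters, I5 and I6, and *Neurod2* in I1 to I4 and I7.

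Among the early factors, *Onecut2* was found in 4966 nuclei, *Onecut3* in 248 and *Onecut1* in 2. *Onecut1* had 1 corrected count in a skeletal and 1 in a visceral nucleus, too few for any further description. *Onecut2* had its highest mean level in the gamma MNs of S3, 150 ± 28.3 CPM (SD, n = 9 libraries; lowest 112, median 147, highest 204). S2 followed with 105 ± 37.9 CPM, I6 with 100 ± 29.5 CPM, S1 with 98.6 ± 21.1 CPM and I5 with 84.1 ± 10.6 CPM. These 5 neighbours in the order did not differ beyond their spread within libraries. V8 lay at 63.1 ± 11.5 CPM (n = 3), I8 at 49.5 ± 23.1 CPM (n = 8) and the other visceral clusters at means of 23.9 to 43.5 CPM. The remaining interneuron clusters, I1 to I4 and I7, had means of 1.37 to 5.38 CPM, and the step down to them from V7 was larger than its spread. *Onecut2* was found in 66.9 ± 11.7% of S3 nuclei, 52.1 ± 14.3% of I5 nuclei and 51.7 ± 17.9% of I6 nuclei, but in 0.777 to 2.74% of the nuclei of I1 to I4, a share that free RNA could also give. With every nucleus thinned to 4600 corrected counts, the shares were 48.6% in S3, 31.5% in I5, 37.3% in I6 and 0.413 to 2.67% in I1 to I4. *Onecut3* had its highest means in the same 2 interneuron clusters, 17.3 ± 8.49 CPM in I5 and 13.8 ± 6.60 CPM in I6 (n = 9), which did not differ beyond their spread. Its means in all other clusters were at most 4.82 CPM, and it was found in 14.2 ± 9.30% of I5 nuclei and 9.37 ± 4.03% of I6 nuclei.

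The *Zfhx* genes of intermediate births fell into different patterns. *Zfhx3* was highest in I8, at 1889 ± 234 CPM (n = 8; lowest 1642, median 1831, highest 2399), followed by I6 at 1292 ± 243 CPM, I5 at 638 ± 133 CPM (n = 9) and V8 at 587 ± 38.1 CPM (n = 3). Every step down this order to S2, at 168 ± 44.4 CPM, was larger than its spread within libraries, but in the 3 libraries that held both, V8 was above I5. No other cluster had a mean above 168 CPM, and the lowest was V4 at 15.9 ± 15.1 CPM, 119 times below I8. *Zfhx3* was found in 329 of 329 I8 nuclei, in 99 ± 2.00% of I6 nuclei, in 93.5 ± 5.17% of I5 nuclei and in 89.5 ± 2.82% of V8 nuclei. In the other interneuron clusters its share was 10.0 to 22.7%. *Zfhx4* had the same 4 clusters on top, I8 at 443 ± 102 CPM (n = 8), V8 at 225 ± 40.8 CPM (n = 3), I6 at 179 ± 36.1 CPM and I5 at 171 ± 25.3 CPM (n = 9). I6 and I5 did not differ beyond their spread, and all other clusters had means of at most 22.7 CPM. It was found in 96.0 ± 3.97% of I8 nuclei, 71.4 ± 9.94% of I5 nuclei, 68.6 ± 11.3% of I6 nuclei and 62.5 ± 2.05% of V8 nuclei. *Zfhx2* showed no such pattern. Its means ran from 22.6 ± 14.6 CPM in V7 to 67.5 ± 18.6 CPM in V8, 2.98 times apart, and 0 of the 20 steps between neighbours in the order were larger than their spread.

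The 3 *Nfi* genes, factors of late births, differed in their patterns. *Nfia* was highest in I8, at 1190 ± 247 CPM (n = 8; lowest 883, median 1234, highest 1628), then in S2 at 929 ± 220 CPM, S1 at 656 ± 94.5 CPM and S3 at 294 ± 55.6 CPM (n = 9). Each of these steps was larger than its spread. V7 followed at 249 ± 94.4 CPM without differing from S3 beyond the spread, and the lowest mean was that of I3 at 16.4 ± 10.4 CPM, 72.5 times below I8. *Nfia* was found in 99.5% of I8 nuclei, 97.6% of S2 nuclei, 96.2% of S1 nuclei and 84.5% of S3 nuclei. *Nfib* led in S2 at 328 ± 98.7 CPM, I8 at 304 ± 79.8 CPM and V1 at 250 ± 89.3 CPM, which did not differ from their neighbours beyond the spread. It stood at 157 ± 34.2 CPM in S3, 126 ± 35.9 CPM in S1, 105 ± 24.9 CPM in I4 and 99.7 ± 29.2 CPM in I3, and fell by more than its spread to means of at most 37.1 CPM in the other clusters. I3 and I4, with little *Nfia*, were thus unlike I8 in the balance of the 2 genes. *Nfix* was sparse, with a count in 827 nuclei, and had its highest means in V1 at 17.9 ± 7.44 CPM and I4 at 16.4 ± 6.18 CPM. It was at 0.337 ± 0.952 CPM in I8 (n = 8), where its relatives were high.

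*Neurod2* had a count in 490 nuclei. Its mean was 25.4 ± 6.72 CPM in I3, 18.8 ± 10.1 CPM in I4, 16 ± 5.88 CPM in I2, 14.7 ± 4.68 CPM in I1 (n = 9) and 10.7 ± 8.53 CPM in I7 (n = 6), and neighbours in this order did not differ beyond their spread. All other clusters had means of at most 2.25 CPM. It was found in 8.22 to 16.7% of the nuclei of these 5 clusters, in 1.86% of I8 nuclei and in 0.550% and 0.659% of I5 and I6 nuclei. The share was 0.587 ± 0.376% in skeletal and 0.329 ± 0.223% in visceral MNs, at medians of 7393 and 7519 corrected counts per nucleus. Free RNA was not examined, so low expression in MNs cannot be told from background. *Neurod2* and the pair *Zfhx3* and *Onecut2* thus had their high levels in separate interneuron clusters: I1 to I4 and I7 for the former, and I5, I6 and I8 for the latter.

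Nuclei of I8, and a part of skeletal MN nuclei, carried factors of intermediate and late births together. *Zfhx3* and *Nfia* were found together in 99.5 ± 0.906% of I8 nuclei, against 35.3 ± 12.6% in I5 and 12.1 ± 4.90% in I6; in the skeletal clusters the share was 57.5 ± 20.6% (S1), 63.7 ± 20.7% (S2) and 53.5 ± 16.5% (S3). *Zfhx3* and *Nfib* were found together in 82.9 ± 9.39% of I8 nuclei, 3.91 ± 1.19% of I5 nuclei, 3.57 ± 2.95% of I6 nuclei, and 32.0 ± 21%, 54.9 ± 20.4% and 39.5 ± 17% of S1, S2 and S3 nuclei. In alpha MNs of S2, *Nfia* and *Nfib* were found together in 82.8 ± 8.73% of nuclei. To ask whether genes met in nuclei more often than their clusters gave, the share of nuclei with a gene was compared between nuclei with and without another gene inside clusters, for 36 pairs. A sign-flip test, exact and two-sided, was run with the 9 libraries as replicates; the 3 libraries of a pool share mice, so its unadjusted p-values are too small. In this test, where the smallest possible p is 0.00391, 0 of 36 pairs (0%) passed after Benjamini-Hochberg adjustment, and 8 had an unadjusted p under 0.05, 6 of them above 0 and 2 below. A single pair could not have passed the adjustment even at that smallest p, so the absence of calls does not show that pairs were independent. Nuclei with *Zfhx3* held *Zfhx4* more often by 4.71 ± 2.35 percentage points, in 8 of 9 libraries (exact p = 0.00781, adjusted 0.141). *Onecut3* with *Neurod2* was at -0.708 ± 0.466 points (exact p = 0.00781, adjusted 0.141), but *Onecut3* was found in only 248 nuclei, few of them in clusters with *Neurod2*, and joint counts near 0 leave little room for another sign. The other 6 were *Zfhx3* with *Nfia* (5.19 points), *Nfia* with *Nfib* (3.34), *Nfib* with *Onecut2* (3.41), *Nfia* with *Onecut3* (0.484), *Nfib* with *Neurod2* (0.735) and *Onecut2* with *Neurod2* (-0.404), all with adjusted p of 0.158.

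**Figure D2:**
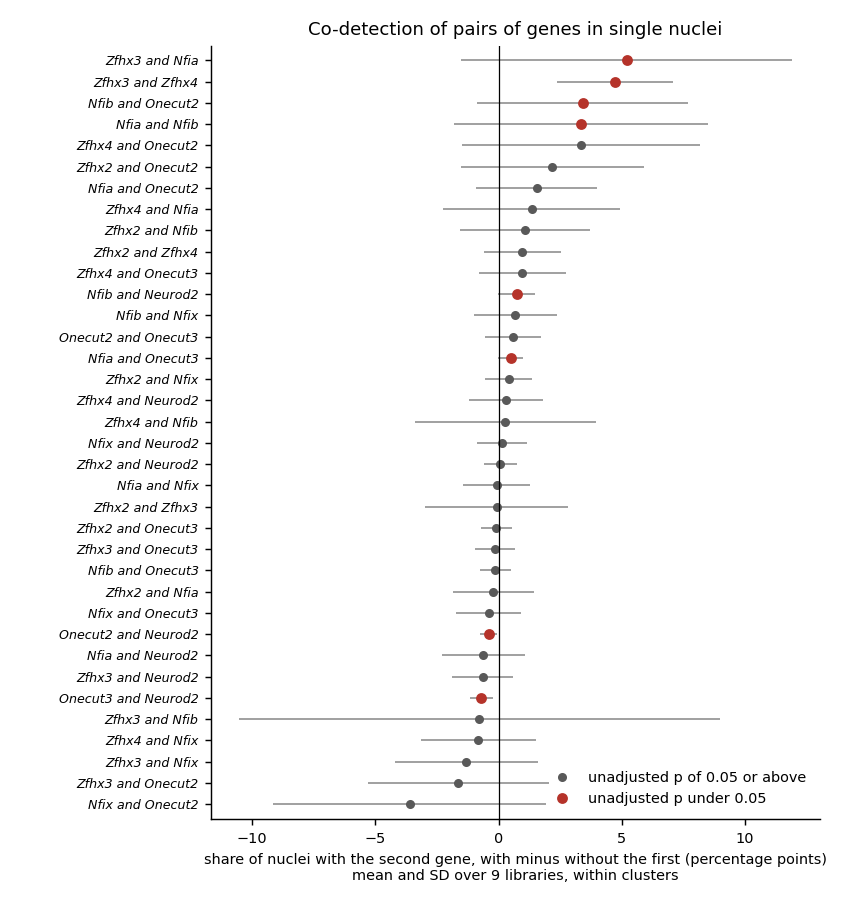
Difference, in percentage points, in the share of nuclei with the second gene between nuclei with and without the first, taken inside clusters, for the 36 pairs of genes. Points are means and bars the SD over 9 libraries, and red marks an unadjusted p under 0.05. *Zfhx3* with *Zfhx4* lies at 4.71 points and 0 of the 36 pairs passed the adjusted test, which no single pair could pass at the smallest possible p.

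Classes were compared to ask how these genes divide interneurons from MNs. The authors drew classes and clusters from these very nuclei, and a test between them is therefore a description of the labelling. *Zfhx3* in interneurons ran from 260 to 525 CPM (median 368), in skeletal MNs from 89.5 to 186 CPM (median 145) and in visceral MNs from 11.3 to 320 CPM (median 24.5). Every interneuron library was above every skeletal library, but 2 visceral libraries, both lumbar/sacral, exceeded the lowest interneuron library. *Neurod2* ran from 7.78 to 19.7 CPM in interneurons and did not exceed 1.29 CPM in any MN library. *Onecut2* ran from 92.7 to 145 CPM in skeletal MNs, 27.4 to 45 CPM in visceral MNs and 15.4 to 32.8 CPM in interneurons, and skeletal MNs overlapped with neither of the others. *Nfia* ran from 417 to 715 CPM in skeletal MNs (median 582), above all libraries of visceral MNs (53.2 to 167 CPM) and interneurons (26.1 to 203 CPM). The share of all genes whose libraries separate between classes in this way was not determined, so these separations only describe the labels.

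By limma across all genes, interneurons differed from the mean of both MN classes in 7 of the 8 genes tested. Of all 11292 genes, 50.5% passed, 20.2% higher and 30.3% lower, so that this count lies above a high background and is a description of few genes. *Zfhx3* was higher in interneurons by 2.06 ± 0.44 (log2 difference ± SE of CPM + 5, limma adjusted p = 0.000462), *Zfhx4* by 2.01 ± 0.40 (adjusted p = 0.000227) and *Neurod2* by 1.64 ± 0.09 (adjusted p = 1.02e-12). High *Zfhx3* and *Zfhx4* were limited to I5, I6 and I8. In I1 to I4 and I7, *Zfhx3* means were 24.6 to 47.5 CPM, below the 125 to 168 CPM of the skeletal clusters. *Zfhx4* means there were 3.11 to 22.7 CPM, beside 9.75 to 17.5 CPM in the skeletal clusters. *Neurod2* passed the filter on low values only through the interneurons and *Nfix*, at 2.92 to 5.85 CPM in interneurons, only through the MNs, so that a difference was built in for both. *Nfia* was lower at -1.31 ± 0.17 (limma adjusted p = 1.38e-06), *Onecut2* at -1.21 ± 0.09 (adjusted p = 3.40e-10), *Nfib* at -0.69 ± 0.19 (adjusted p = 0.00462) and *Nfix* at -0.57 ± 0.09 (adjusted p = 1.37e-05). Over whole classes, the gap for *Nfia* and *Nfib* was to skeletal MNs alone. Means in interneurons, visceral MNs and skeletal MNs were 102, 102 and 567 CPM for *Nfia* and 54.2, 46.2 and 193 CPM for *Nfib*. *Zfhx2* was at 0.11 (95% interval -0.07 to 0.29, limma adjusted p = 0.343), and *Onecut1* and *Onecut3* were too low to be tested. *Mbp*, the highest of the oligodendrocyte markers, was also lower in interneurons, at -0.72 (limma adjusted p = 4.35e-05), and its part in the *Nfi* values was not tested. The median over the 8 genes was -0.23, beside -0.04 over all genes tested. A single cluster carried much of the *Nfia* level of interneurons: without the 329 nuclei of I8, the difference was -2.61 ± 0.13 (limma adjusted p = 2.73e-13). The other interneuron clusters had *Nfia* means of 16.4 to 79.8 CPM, each below the visceral mean of 102 CPM as well.

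Visceral and skeletal MNs differed in 4 of 8 genes, all lower in visceral MNs. Of all genes, 66.7% passed, 36.7% higher and 30.1% lower in visceral MNs, so that the number passing was no larger than the background. *Nfia* was lower at -2.47 ± 0.20 (limma adjusted p = 4.51e-10), *Nfib* at -2.07 ± 0.22 (adjusted p = 3.89e-08) and *Onecut2* at -1.60 ± 0.11 (adjusted p = 1.84e-11). *Mbp* was lower in visceral MNs as well, at -0.97 (limma adjusted p = 4.09e-06), and its part in the *Nfi* values was not tested. The median over the 8 genes was -0.80, beside 0.04 over all genes tested. *Zfhx3* was lower at -1.45 ± 0.50 (limma adjusted p = 0.0154), a call lost without the library labelled cervical replicate 2 (-1.26), thoracic replicate 1 (-1.20) or thoracic replicate 3 (-1.23), and without the cervical and thoracic libraries of replicate 2 together (-1.05, adjusted p = 0.132). *Zfhx4* was at 0.09 ± 0.46 (limma adjusted p = 0.876), with a wide interval of -0.81 to 0.99. The values of *Zfhx3* and *Zfhx4* average opposite differences between regions. In visceral and skeletal MNs, mean *Zfhx3* was 26.2 and 165 CPM in cervical and 12.3 and 148 CPM in thoracic libraries. In lumbar/sacral libraries it was 279 and 113 CPM. Mean *Zfhx4* was 5.09 and 22.1 CPM, 4.22 and 14.5 CPM, and 85.9 and 8.76 CPM in the same order of regions.

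A list of 18 other genes of the same temporal programs and families was examined in the same fit, and 12 passed the filter. Of these, 10 passed the test in interneurons against MNs, 5 in each direction, with a median of 0.01. Of all 11292 genes, 50.5% passed, 20.2% higher and 30.3% lower, so this count too is a description of few genes above a high background. Among those higher in interneurons, *Bcl11a* was higher by 2.86 on the log2 scale, *Tcf4*, a partner of helix-loop-helix factors, by 2.32, *Bcl11b* by 1.66 and *Pou2f2*, a factor of intermediate births, by 0.28. *Foxp2*, a forkhead repressor, was lower at -1.51, *Sox11* at -0.75, *Nfic*, the remaining NFI gene, at -0.32, *Cux1* at -0.23 and *Foxp4* at -0.20. *Cux2* and *Sox4* did not pass the test. *Bcl11b*, at most 7.92 CPM in MNs, passed the filter on low values only through the interneurons. *Foxp4*, at most 9.80 CPM in interneurons, passed that filter only through the MNs, so that a difference was built in for both. The *Pou2f2* value averages 2 opposite differences, as its mean in interneurons, 55.3 CPM, lay above that of skeletal MNs (23.9 CPM) and below that of visceral MNs (82.3 CPM). *Nfic* moved in the direction of the other NFI genes.

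Among skeletal MNs, the question was which types carry the late factors. *Nfia* in alpha MNs (S2) ran from 488 to 1190 CPM (median 981), in Type 3 MNs (S1) from 522 to 777 CPM (median 674) and in gamma MNs (S3) from 244 to 379 CPM (median 268). Every S2 and S1 library lay above every S3 library, and S2 lay above S1 of the same library in 8 of 9, the exception being the library labelled cervical replicate 2. *Nfib* ran from 142 to 484 CPM in S2, 66.5 to 175 CPM in S1 and 109 to 204 CPM in S3, and without that library the S2 values, 245 CPM or more, were above all those of S1 and S3. *Onecut2* in S2 of that library was 11.8 CPM, against 85.8 to 133 CPM in S2 of the other 8. How many of all genes separate between these clusters in this way was not determined.

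**Figure D3:**
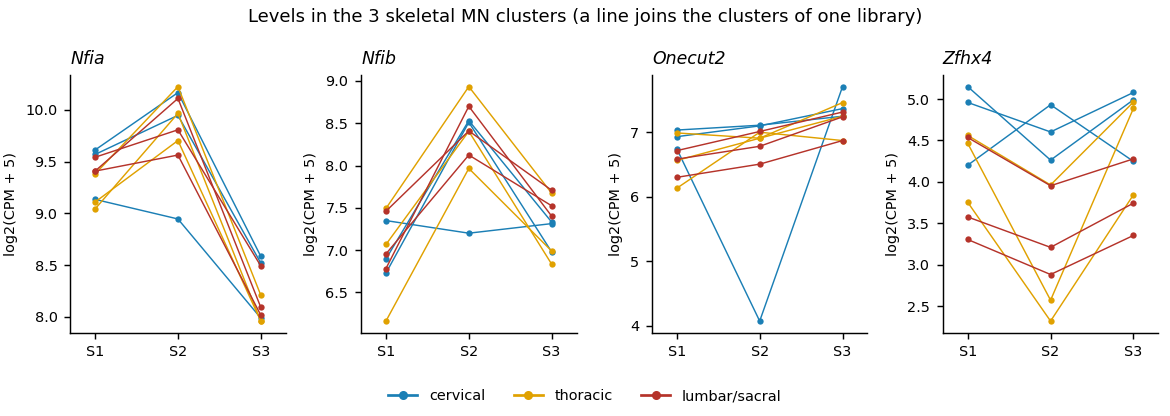
Levels, as log2(CPM + 5), of *Nfia*, *Nfib*, *Onecut2* and *Zfhx4* in Type 3 (S1), alpha (S2) and gamma (S3) MNs; a line joins the clusters of a library and its colour gives the region. *Nfia* in S3 lies below S1 and S2 in all 9 libraries, and a single cervical library has *Onecut2* at 11.8 CPM in S2, where the others are at 85.8 CPM or more.

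By limma with a term for the library, S2 differed from S1 in 4 of 7 genes, where 25.4% of 11465 genes passed. *Nfib* was higher in S2 by 1.32 ± 0.15 (limma adjusted p = 8.87e-08), *Nfia* by 0.47 ± 0.09 (adjusted p = 0.000244) and *Zfhx3* by 0.40 ± 0.10 (adjusted p = 0.00221). *Zfhx4* was lower at -0.65 ± 0.21 (limma adjusted p = 0.0208), a call lost without cervical replicate 1, thoracic replicate 1 or thoracic replicate 3. Without the library labelled cervical replicate 2, whose S2 nuclei carried visceral and interneuron markers (*Pax2* 45.1 CPM against at most 14.3 CPM in the others, *Mpped2* 88.3 against at most 33.4 CPM), *Nfib* was higher by 1.51 ± 0.10 and *Zfhx4* lower at -0.82 ± 0.17, *Nfix* became a call at 0.66 ± 0.17 (limma adjusted p = 0.00311, against 0.41 and 0.199 with it), and *Onecut2* turned from -0.07 (adjusted p = 0.883) to 0.26 ± 0.08 (adjusted p = 0.0113). The part of those markers in these values was not tested. Mean *Nfix* was low, at 8.45 CPM in S2 and 4.72 CPM in S1, and its difference ran from 0.19 to 0.78 over the alternatives. The median over the 7 genes was 0.40, beside -0.02 over all genes.

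S3 differed from S1 in 2 of 7 genes, where 19.8% of all genes passed, and the medians were 0.23 and -0.02. *Nfia* was lower in gamma MNs at -1.15 ± 0.09 (limma adjusted p = 1.24e-10) and *Nfix* was higher by 0.86 ± 0.22 (adjusted p = 0.00536). Mean *Nfix* was 12.3 CPM in S3 and 4.72 CPM in S1, near the 5 added to each CPM. Its difference ran from 0.39 to 1.38 over the alternatives. *Onecut2* was at 0.59 ± 0.24 (limma adjusted p = 0.0995) and *Nfib* at 0.32 (adjusted p = 0.149), and without the library labelled cervical replicate 2 these were 0.54 ± 0.08 (adjusted p = 4.07e-06) and 0.36 ± 0.10 (adjusted p = 0.00793). S2 differed from S3 in 4 of 7 genes, where 31.1% of all genes passed, with medians of -0.13 and 0.01. *Nfia* was higher in alpha MNs by 1.62 ± 0.09 (limma adjusted p = 1.38e-13) and *Nfib* by 1.0 ± 0.15 (adjusted p = 4.24e-06), while *Zfhx4* was lower at -0.74 ± 0.21 (adjusted p = 0.00643). *Onecut2* was lower in alpha than in gamma MNs at -0.66 ± 0.24 (limma adjusted p = 0.0413), which was -0.29 ± 0.08 (adjusted p = 0.00449) without the library labelled cervical replicate 2, and the call was lost in 10 of 17 alternatives.

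Regions were compared to ask whether these genes differ along the cord, with regions taken from the dissection and classes from the authors' labels. The clearest difference was in visceral MNs, which are sympathetic in thoracic and upper lumbar cord and parasympathetic in sacral cord. *Zfhx3* in visceral MNs was 24.5, 16.5 and 37.5 CPM in the cervical libraries, 12.1, 13.6 and 11.3 CPM in the thoracic libraries and 320, 220 and 298 CPM in the lumbar/sacral libraries. *Zfhx4* was 6.91, 2.73 and 5.62 CPM, 6.30, 2.49 and 3.85 CPM, and 114, 61.6 and 82.6 CPM. For both genes every lumbar/sacral library lay far above the other 6. *Nfib* was 79.0, 44.3 and 89.6 CPM, 49.8, 58.5 and 34.6 CPM, and 20, 16.6 and 22.9 CPM, with every lumbar/sacral library below the other 6. All 3 lumbar/sacral libraries lay on the same side of all others in 9.63% of the 10031 genes tested.

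**Figure D4:**
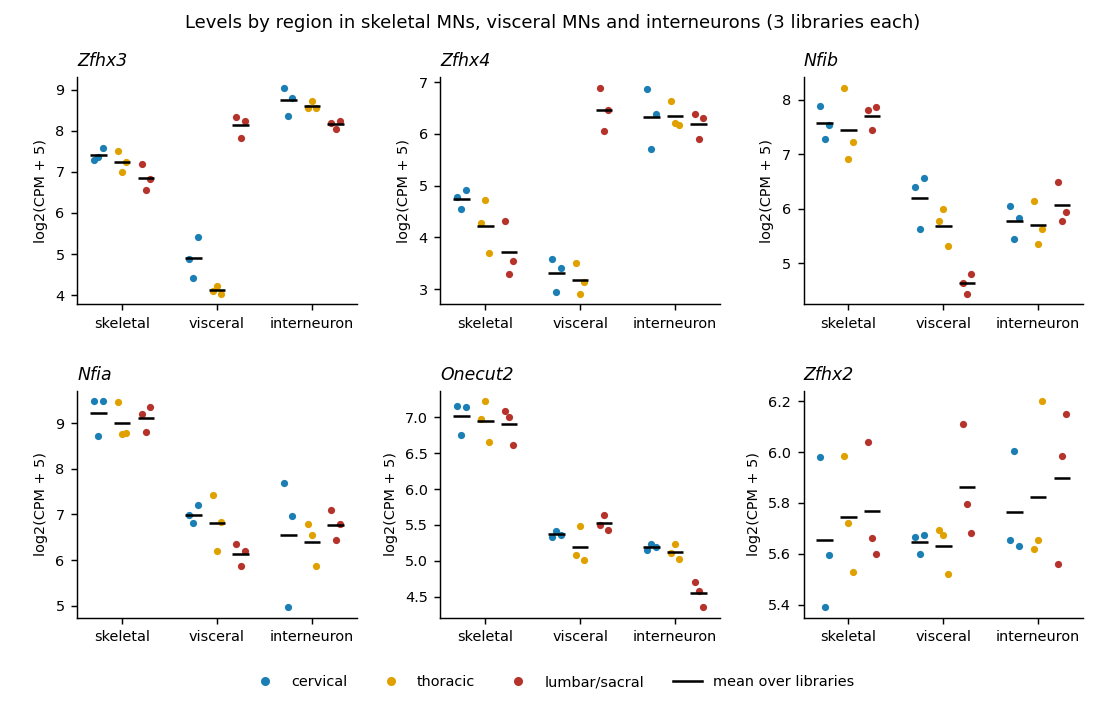
Levels of 6 genes, as log2(CPM + 5), by region and class; points are libraries and bars the mean over the 3 libraries of a region. In visceral MNs *Zfhx3* is 220 to 320 CPM in lumbar/sacral libraries and at most 37.5 CPM in the others, while skeletal MNs and interneurons show no such step.

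By limma, *Zfhx3* was higher in lumbar/sacral visceral MNs by 3.62 ± 0.21 on the log2 scale, 12.3 times (limma adjusted p = 5.07e-05), and *Zfhx4* by 3.22 ± 0.23, 9.32 times (adjusted p = 0.000139). *Zfhx4* reached 10 CPM only in the lumbar/sacral libraries, so it passed the filter on low values through the group in which it was high. *Nfib* was lower at -1.32 ± 0.23 (limma adjusted p = 0.0123). These were 3 of 6 genes tested, where 4.27% of all genes passed, 2.32% higher and 1.94% lower, and the median over the 6 was 0.24, beside 0.06 over all genes. *Nfia* was at -0.77 ± 0.24 (limma adjusted p = 0.153), and with the pool of mice as a block it passed (adjusted p = 0.0271), the count of all genes rising from 428 to 737. *Onecut2* was at 0.25 (95% interval 0.00 to 0.49) and *Zfhx2* at 0.22 (0.00 to 0.45), neither past the threshold. *Nfib* lost its call without lumbar/sacral replicate 1 (limma adjusted p = 0.0725) or replicate 2 (adjusted p = 0.0819), and leaving out a lumbar/sacral library or cervical replicate 1 took the count of all genes to between 160 and 267.

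The share of visceral nuclei with *Zfhx3* was 50.5, 42.7 and 48.3% in the lumbar/sacral libraries, 11.9, 22.1 and 20.9% in the cervical and 10.2, 8.71 and 6.84% in the thoracic libraries. Thinned to 4600 corrected counts, the lumbar/sacral shares were 47.5, 38 and 43.8% and the others 3.98 to 12.6%. A sum over a class cannot by itself tell a change in the mix of clusters from a change in level, so the clusters were also compared. V8 came almost wholly from lumbar/sacral cord, with 99.1% of its 467 nuclei, and had *Zfhx3* at 621, 546 and 593 CPM and *Zfhx4* at 270, 190 and 215 CPM. Its own *Nfib* was 9.70, 5.16 and 3.1 CPM, and V1, the visceral cluster with most *Nfib*, drew 9.15% of its nuclei from lumbar/sacral cord.

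**Figure D5:**
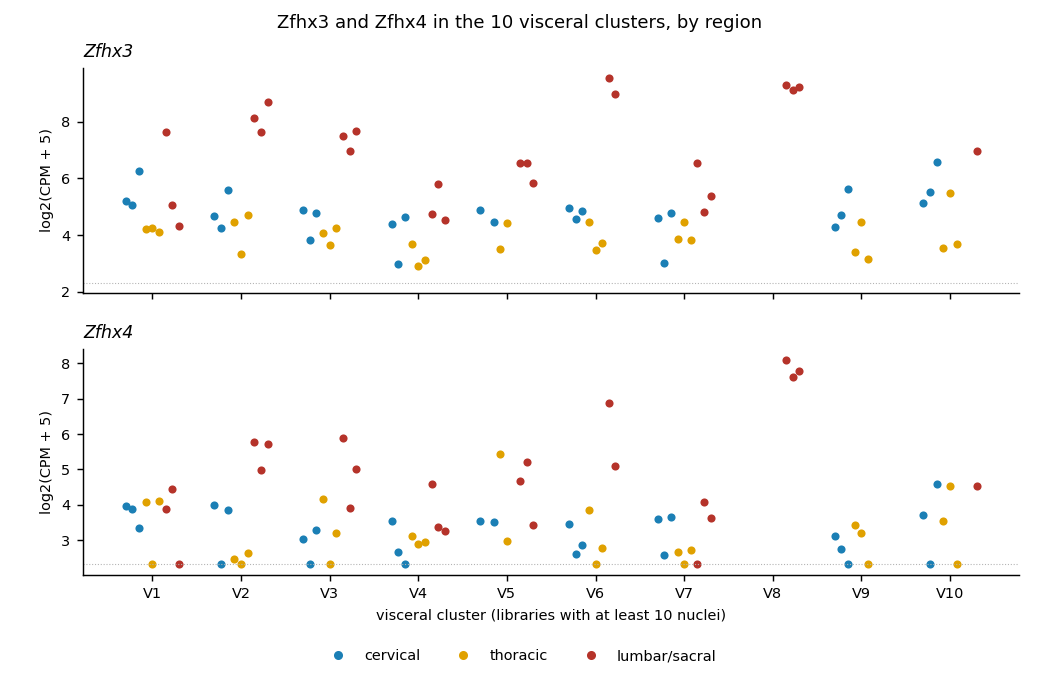
*Zfhx3* and *Zfhx4*, as log2(CPM + 5), in each visceral cluster; points are libraries with at least 10 nuclei of the cluster, coloured by region. Lumbar/sacral points lie above all others for *Zfhx3* in V2, V3, V5, V6 and V7, overlap with them in V1 and V4, and stand alone in V8; in V10 a single lumbar/sacral library, at 119 CPM, had enough nuclei.

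*Zfhx3* was higher in lumbar/sacral nuclei of other visceral clusters too. In V2 it was 276, 192 and 412 CPM in lumbar/sacral libraries and 5.02 to 43.3 CPM in the other 6. In V3 it was 177, 120 and 197 CPM against 7.69 to 24.8 CPM, and in V5 88.3, 87.5 and 52.7 CPM against 6.36 to 24.7 CPM. These groups did not overlap, nor did those of V7, at 87.5, 23.5 and 36.4 CPM against 3.1 to 22.8 CPM. V6 had 745 and 499 CPM in the 2 lumbar/sacral libraries with enough nuclei (13 and 10), against 6.26 to 26.2 CPM. V1 (196, 28.3 and 15.1 CPM against 12.4 to 71.9 CPM) and V4 (22.0, 50.6 and 18.3 CPM against 2.45 to 19.7 CPM) overlapped. *Zfhx4* in V2 was 50.1, 26.7 and 48.0 CPM against 0 to 11.1 CPM, and in V6 113 and 29.3 CPM against 0 to 9.40 CPM, without overlap. In V3 it was 54.0, 10.2 and 27.1 CPM against 0 to 13.0 CPM, and there and in V1, V4, V5 and V7 the lumbar/sacral libraries overlapped with the others. The share of all genes that separate in this way inside single clusters was not determined, so a lack of overlap there is only a description. In V7 the lumbar/sacral sums held 20, 24 and 26 nuclei, and the groups lay close, at 23.5 against 22.8 CPM. Without the nuclei of V8, lumbar/sacral visceral MNs had *Zfhx3* higher by 2.70 ± 0.22 (limma adjusted p = 0.000507) and *Zfhx4* by 1.59 ± 0.25 (adjusted p = 0.0127; again past the filter only through lumbar/sacral libraries), and with a term for the cluster by 2.40 ± 0.33 (adjusted p = 6.00e-07) and 1.26 ± 0.33 (adjusted p = 0.0215). *Nfib* behaved otherwise: without V8 it was at -1.01 (limma adjusted p = 0.0901), and with a term for the cluster at -0.02 ± 0.34 (adjusted p = 0.995). Inside V1 it was 245, 176 and 242 CPM in lumbar/sacral libraries and 154 to 400 CPM in the others, which overlapped.

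In skeletal MNs, 0 of 7 genes passed between lumbar/sacral cord and the other regions by limma, where 0.0100% of 9999 genes passed (1 gene, and 402 at an unadjusted p under 0.05). *Zfhx4* was at -0.77 (95% interval -1.32 to -0.23) and *Zfhx3* at -0.47 (-0.78 to -0.15), both with a limma adjusted p of 0.900. The median over the 7 genes was -0.00, beside 0.12 over all genes, which scaling by the median of ratios moved to -0.01. With the pool as a block, 4 genes passed, none of them described here. In interneurons 0 of 7 passed, where 0.0510% of 9805 genes passed (5 genes, and 331 at an unadjusted p under 0.05, and 44 with the pool as a block), and the medians were 0.10 and 0.01.

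In interneurons *Onecut2* was 30.5, 32.8 and 31.6 CPM in cervical, 29.6, 32.5 and 27.6 CPM in thoracic and 21.1, 19.0 and 15.4 CPM in lumbar/sacral libraries. The lumbar/sacral libraries did not overlap with the others, as held for 2.57% of genes in this class, but the difference of -0.61 ± 0.11 did not pass (limma adjusted p = 0.183). *Zfhx3* was 525, 325 and 438 CPM, 368, 419 and 370 CPM, and 285, 260 and 294 CPM, again without overlap and without passing (-0.52 ± 0.14, limma adjusted p = 0.485). Without the nuclei of I8 it was -0.94 ± 0.08 (limma adjusted p = 0.00547), and with a term for the cluster 0.07 (adjusted p = 1.0). I5 and I6, its clusters besides I8, drew 30.3% and 31.4% of their nuclei from lumbar/sacral cord, whereas 46.4% of all interneurons came from there. *Onecut2* too was highest among interneurons in I6 and I5, at means of 100 and 84.1 CPM. Its regional difference in interneurons ran from -0.71 to -0.10 over 19 alternatives and passed in 0 of them.

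The regional effect was compared between classes in a single limma fit with a term for the library. The lumbar/sacral difference was larger in visceral than in skeletal MNs by 4.09 ± 0.18 for *Zfhx3* (limma adjusted p = 5.02e-11) and 3.99 ± 0.24 for *Zfhx4* (adjusted p = 1.53e-09), and was -1.51 ± 0.24 for *Nfib* (adjusted p = 0.000264). These were 3 of 8 genes, where 9.32% of all genes passed. Against interneurons the differences were 4.15 for *Zfhx3* (limma adjusted p = 7.89e-11), 3.36 for *Zfhx4* (adjusted p = 1.43e-08), -1.64 for *Nfib* (adjusted p = 0.000106) and 0.86 for *Onecut2* (adjusted p = 0.000128), 4 of 8 genes where 8.13% passed. Between interneurons and skeletal MNs 0 of 8 passed, where 0.646% of all genes did, and *Onecut2* was nearest at -0.53 (limma adjusted p = 0.0664). The 3 comparisons share their libraries. They use sums over a class, which cannot tell a change in the mix of clusters from a change in level.

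Between cervical and thoracic cord none of these genes passed in any class by limma (7 tested in skeletal MNs, 6 in visceral MNs, 7 in interneurons). Over all genes 0% passed in each class, with 607, 160 and 189 genes at an unadjusted p under 0.05. Nearest to a call among these genes was *Zfhx3* in visceral MNs, at 0.80 ± 0.24 higher in cervical libraries (limma adjusted p = 0.945). Without the cervical and thoracic libraries of replicate 2, it was 1.09 ± 0.24 (limma adjusted p = 0.278), and 1 gene passed in skeletal MNs, none of those described here.

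The genes whose mean log2 level over the 21 clusters was most like that of each factor were taken as a description, among 11292 genes. *Zfhx3* and *Zfhx4* were among each other's 3 most similar genes, with a Pearson r of 0.921 over clusters. The remaining genes for *Zfhx3* were *Lncbate1* (r = 0.942) and *2700069I18Rik* (0.918), and for *Zfhx4* the same 2, *2700069I18Rik* (0.969) and *Lncbate1* (0.923). *Lncbate1* overlaps *Zfhx3* on the opposite strand by 31344 bases, and *2700069I18Rik* overlaps *Zfhx4* likewise by 2316 bases. The setting for strand in the counting is not given in the sources used here, so reads of such partners cannot be told apart. The same holds for *E130114P18Rik*, with an r of 0.905 to *Nfia* and an overlap of 5345 bases, and for *Gm20687*, with an r of 0.726 to *Zfhx2* and an overlap with its whole length. *Neurod2* was closest to *4930438E09Rik* (0.985), the helix-loop-helix gene *Ebf2* (0.983) and the homeobox gene *Uncx* (0.981). *Onecut2* was closest to *Cda* (0.902), *Zfp14* (0.894) and *Skil* (0.860), *Nfib* to *Ndrg2* (0.822), *Adgra3* (0.816) and *Coro7* (0.788), and *Nfix* to *Pacs2* (0.734), *Wdpcp* (0.730) and *Pde7a* (0.704). The other genes nearest to *Nfia* were *Bag6* (0.909) and *Vwa7* (0.892), and those nearest to *Zfhx2* were *Blm* (0.713) and *Cd47* (0.707). The clusters share libraries and depth, and these values carry no test.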

How the data were processed

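Single-nucleus RNA sequencing (10x Chromium, version 3 chemistry) was done on GFP+ nuclei of 3 pools of mice and 3 regions. Per the paper's methods, reads were mapped by the authors to GRCm38 genes with introns included (Cell Ranger, version 3.1.0), and SCTransform in Seurat normalised them. The deposited values used here are corrected counts, whole numbers that the authors' model produced, and their unit is a score, not a count of molecules; depth behind them is therefore known only as the corrected total. The strand setting of the counting is not given in the sources used here. No doublet caller was run, nuclei and cluster labels were those of the authors, and the number of columns of no known sample was 0.

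Corrected counts were summed per library and class or cluster (10 nuclei or more) and expressed per 1000000 (CPM). Linear models were fitted to log2(CPM + 5) across all genes that reached 10 CPM in 3 or more sums, using limma (version 3.58.1, R version 4.3.3) with its trend option, with Benjamini-Hochberg adjustment, and a gene passed at an adjusted p under 0.05. Class and type fits carried a term for the library, and region fits had none. Co-detection used an exact sign-flip test. The 9 libraries come from 3 pools of mice. In fits with a term for the library, p-values measure the spread over libraries of differences within a library. In region fits they measure the spread between the libraries of a region. Apart from the fits with the pool as a block, libraries of a pool were treated as independent, so p-values do not measure the spread between pools. The replicate numbers pair the libraries because libraries of a number share their mice; the deviations of 27 pairs of libraries of a pool correlated at -0.220 to 0.922, 21 of them over 0.1. Neighbouring clusters were said not to differ beyond their spread where the mean difference within libraries was smaller than its SD. Thinning of each nucleus to 4600 corrected counts lost 8.63% of nuclei, and 44.1% in lumbar/sacral replicate 1. Promoter sequences were read from a RefSeq table of GRCm38.p6, and gene positions from GENCODE.

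All 10 genes are named whatever their values, with the list of 18 related genes by its calls in interneurons against MNs (1 of them is counted but its value is not reported here) and the 3 most similar genes of each tested factor. The genes and lists were chosen with earlier results of these data known. The alternatives were the pseudocount (1 or 20), the filter, scaling by the median of ratios, a minimum of 30 nuclei, thinning, the replicate block, a cluster term, each library left out, and, chosen after the data were seen, the fit of regional effects across classes, the cervical and thoracic libraries of replicate 2 left out, and V8 or I8 left out. Scripts were tested on simulated data. Further tools were numpy 2.4.6, matplotlib 3.10.9, scipy 1.17.1 and pandas 2.3.3, under Python 3.11.15 with seed 1.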

Additional observations from a re-analysis of the deposited data

Results flagged for a closer look

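The regional effect (lumbar/sacral minus the mean of cervical and thoracic) differed between classes by a limma test of the difference itself. Visceral minus skeletal MNs gave 4.09 for *Zfhx3*, 3.99 for *Zfhx4* and -1.51 for *Nfib*, on the log2 scale. Visceral MNs minus interneurons gave 4.15 for *Zfhx3*, 3.36 for *Zfhx4*, -1.64 for *Nfib* and 0.86 for *Onecut2*. V8, of which 99.1% of nuclei were lumbar/sacral, moves with these results, and *Zfhx3* and *Zfhx4* remained higher in lumbar/sacral visceral MNs without it (2.70 and 1.59), where *Zfhx4* passed the filter on low values only through those libraries.

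Dixon's test was applied to the 9 libraries of a class in 27 groups of a gene and a class, of which chance flags about 1 in 20. *Zfhx2* in visceral MNs of lumbar/sacral replicate 1, at 64.2 CPM, and *Onecut3* in visceral MNs of lumbar/sacral replicate 3, at 3.98 CPM, stood above the other 8 libraries by more than its limit. Lumbar/sacral replicate 1 had the lowest median corrected total, 4712 per nucleus, and the part of depth in the *Zfhx2* value was not tested.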

How the results depend on the processing

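Across the alternatives, 2260 single values were compared: genes in a comparison, co-detection pairs, and mean levels of genes in their highest cluster. Of these, 2208 stayed on their side of the threshold or, for the mean levels, within an SD of the main value. Among them, 149 that passed in neither fit changed sign. Of the rest, 24 fell below the threshold, 26 rose past it and 2 reversed. The 2 reversals were *Onecut2* in S2 against S1 without cervical replicate 2 (0.26) and without the cervical and thoracic libraries of replicate 2 (0.31); leaving out each library in turn gave -0.19 to 0.26. The replicate block (dropping it where the main fit had a library term) took the number of genes passing to 3627 in interneurons against MNs, 1930 in S2 against S1, and 323, 294 and 5 in the differences of regional effects, visceral minus skeletal, visceral minus interneuron and interneuron minus skeletal; *Zfhx3* and *Zfhx4* in S2 against S1 and *Zfhx4* and *Onecut2* in S2 against S3 then no longer passed. Adding the block of pools to the region fits gave 4 (skeletal), 737 (visceral) and 44 (interneuron) genes and, of the genes described here, changed only the call of *Nfia* in visceral MNs. A filter of 10 corrected counts in every sum gave 1636, 1348 and 1846 in S2 against S1, S3 against S1 and S2 against S3, 0 in skeletal and 2 in interneuron regions. Thinning gave 693 (visceral minus skeletal), 33 (interneuron minus skeletal) and 0 (interneuron regions). A pseudocount of 1 gave 0 (skeletal regions) and 2 (interneuron regions), no filter 12 (skeletal), and scaling by the median of ratios 3 (interneuron). A cluster term gave 11, 215 and 8 for skeletal, visceral and interneuron regions. Without V8 the visceral count was 173, and without I8 the interneuron count 9. Without the cervical and thoracic libraries of replicate 2 the counts were 149 (interneuron minus skeletal), 1 (cervical against thoracic, skeletal) and 13 (interneuron regions). Leaving out each library in turn gave 14 to 89, 506 to 1044 and 657 to 1205 in the differences interneuron minus skeletal, visceral minus interneuron and visceral minus skeletal, 0 to 1 in skeletal, 160 to 471 in visceral and 1 to 9 in interneuron regions, lowest without a lumbar/sacral library except in interneurons, where 7 of 9 libraries gave 1. The causes were not tested. Co-detection gave 0 pairs under every alternative. No single pair could pass this test at its smallest possible p, which rises further when libraries are left out, so no conclusion is drawn from that number. Near-zero levels of *Onecut1*, *Onecut3*, *Nfix* and *Neurod2* limit what can be said of their differences at this depth.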
